A study of Mus musculus with 10 samples.

Results

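The fibroblast growth factor (FGF) genes described here are the ligands Fgf1, Fgf2, Fgf7, Fgf9, Fgf10 and Fgf21, the receptors Fgfr1, Fgfr2 and Fgfr3, and Klb, which encodes beta-klotho. They were chosen by name as the FGF21 path and the other FGF genes of fat, and all 10 were found among the 51826 genes listed in each deposited table. RNA-seq was performed on rRNA-depleted total RNA of inguinal white adipose tissue (iWAT), a subcutaneous fat depot, from male C57BL/6 mice, with 1 library per mouse. The F0 males received the control diet (CD) or the low-protein diet (LPD) from weaning, and 2 mice of each diet were sampled at 10 to 12 weeks of age. The F1 mice were 5 weeks old, with 3 offspring of CD fathers and 3 offspring of LPD fathers (pLPD offspring), all born to CD-fed mothers. All 6 were themselves fed CD from weaning. Littermates were not used within a group, as each mouse had its own mother. All animals came from stock kept on CD for 2 generations. Whether the 4 F0 mice were themselves fathers of the 6 F1 mice is not given in the sources used here.

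FGFs bind tyrosine kinase receptors on the cell surface and signal mainly through the FRS2, RAS and ERK cascade. Most ligands, such as FGF1, FGF2, FGF7, FGF9 and FGF10, act near the cell that secretes them and need heparan sulphate chains to bind. FGF21 is a hormone with little affinity for heparan sulphate. It needs the membrane protein beta-klotho beside FGFR1, and fat is one of its main target tissues. FGF21 is best known as a liver hormone of fasting and of protein restriction, whereas FGF1 and FGF10 have known roles in the remodelling and formation of fat.

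Total exon reads were between 6351075 and 10044546 per library, and a level of 3 reads corresponded to 0.300 to 0.468 counts per 1000000 (CPM). Genes that define adipocytes were abundant in every library, and their summed level over 9 genes was 18013 to 25153 CPM. The share of gene reads that fell on exons was 49.2% to 51.2% in the offspring of CD fathers, 39.3% to 45.4% in pLPD offspring and 51.4% to 54.7% in F0, and replicate 1 of the pLPD offspring was the lowest. Summed levels of 9 skeletal muscle genes were 1442 and 2199 CPM in F0 CD mice, 959 and 699 CPM in F0 LPD mice and 40.0 to 169 CPM in F1. These tissue pads hold many cell types, and fewer cells of a type cannot be told apart from less RNA per cell.

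Fgfr1 and Klb, the receptor and co-receptor of FGF21, were the highest of the 10 genes. Levels of different genes are compared here in the RPKM that the authors deposited, which divide reads by exon length. Over the 10 mice, Fgfr1 was at 12.1 RPKM (range 8.82 to 16.4) and Klb at 10.2 RPKM (7.43 to 14.7). Fgf10, a ligand of FGFR2b that is made by adipose stromal cells, was the highest ligand on average at 5.22 RPKM (3.07 to 10.4). Fgf2, which encodes basic FGF, was at 3.98 RPKM (1.74 to 8.85) and Fgf1, which encodes acidic FGF, at 2.56 RPKM (1.21 to 5.29). In both F0 CD mice the order of these ligands was the other way, with Fgf2 at 6.35 and 8.85 RPKM above Fgf10 at 5.10 and 5.23 RPKM. Below these were Fgfr2 at 0.869, Fgf7 at 0.838, Fgfr3 at 0.293, Fgf21 at 0.230 and Fgf9 at 0.0760 RPKM. The range over mice overlapped that of the next gene at every step of this order but 1, between Fgf1 and Fgfr2. Within a mouse the order was firmer at some steps, since Klb lay above Fgf10 and Fgf7 above Fgfr3 in 10 of 10 mice, Fgfr1 above Klb in 7, and Fgfr2 above Fgf7 in only 5.

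**Figure D1:**
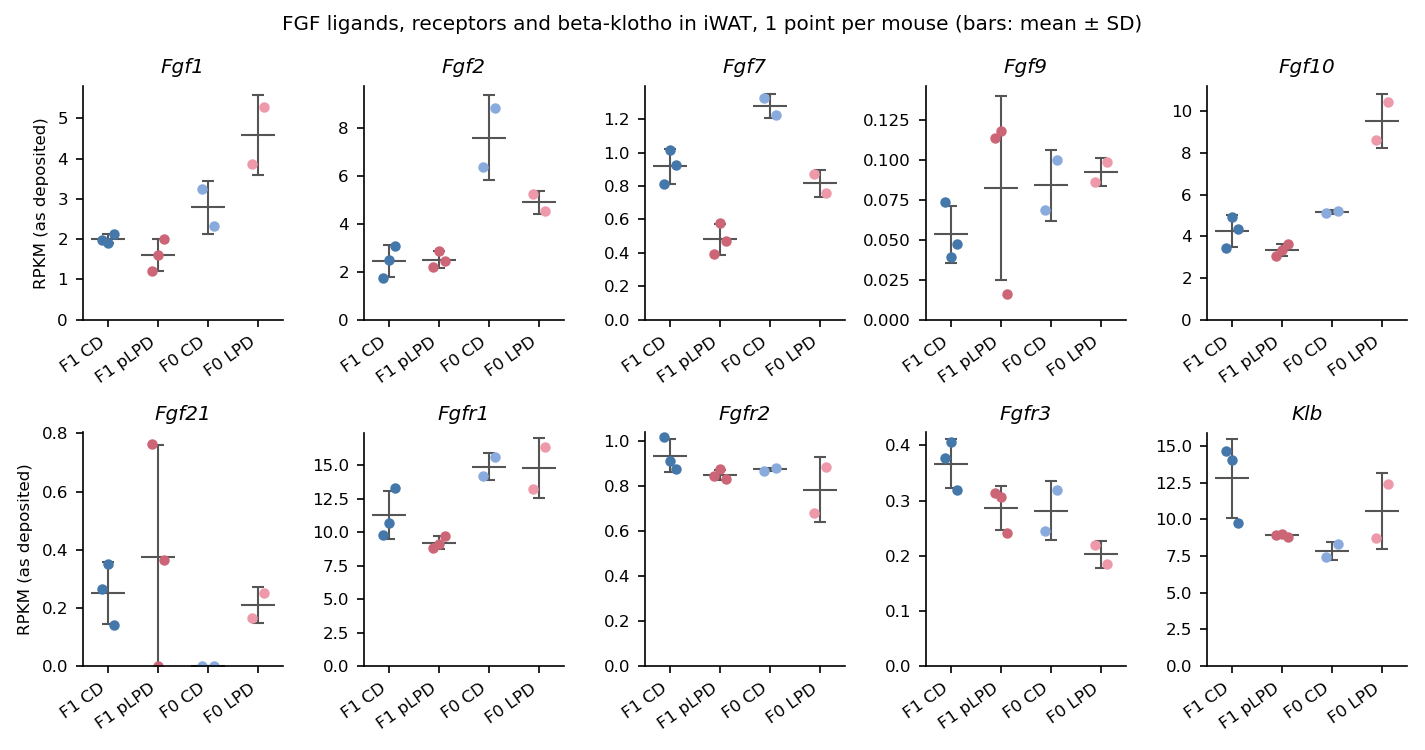
Deposited RPKM of the 10 genes in each mouse, by group, with the mean and SD of each group; each panel has its own axis from 0. Fgf10 was 8.62 and 10.4 RPKM in the 2 F0 LPD mice and at most 5.23 RPKM elsewhere, and Fgf21 was 0 in both F0 CD mice. RPKM divide by a library total that exceeds the exon reads, and the exon share was lowest in pLPD offspring (39.3% to 45.4%). Groups are therefore compared in CPM in the text.

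The order depends on which reads are counted, because most exon reads of 3 ligands also matched other places in the genome. Uniquely matching reads made up 11.1% of all exon reads of Fgf2, 16.8% of those of Fgf1 and 34.6% of those of Fgf7, over the 10 libraries. They made up 80.4% for Fgf10, 98.0% to 99.9% for the 3 receptors, and all reads of Klb, Fgf21 and Fgf9. In GENCODE vM21, stretches of 25 bases shared with transcripts of other genes covered 14.2% of the longest coding transcript of Fgf2 and occurred in up to 391 other genes. For Fgf1 the shared share was only 0.505%, in up to 224 other genes, for Fgf7 it was 1.13% and for Fgf10 3.08%, each in up to 1230 other genes, and Klb and Fgf21 shared none. In unique exon reads per kilobase, Fgf10 (9.85 per 1000000 unique reads) stood far above Fgf2 (1.01), Fgf1 (1.01) and Fgf7 (0.663), Fgfr2 (2.09) moved above Fgf2 and Fgf1, and 5 of the 10 genes kept their place in the order. Fold changes of Fgf1, Fgf2 and Fgf7 are therefore given below also in unique reads, where enough were left for a test. Genes annotated on the opposite strand overlap the span of every member but Klb and Fgf21: Arhgap26 over Fgf1, 3 genes with Fgf2os and Nudt6 among them over Fgf2, Fam227b over Fgf7, Gm16263 over Fgf10, and at least 1 over Fgf9 and each receptor. The strand setting of the counting is not given in the sources used here, so reads of these genes and their partners cannot be told apart.

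**Figure D2:**
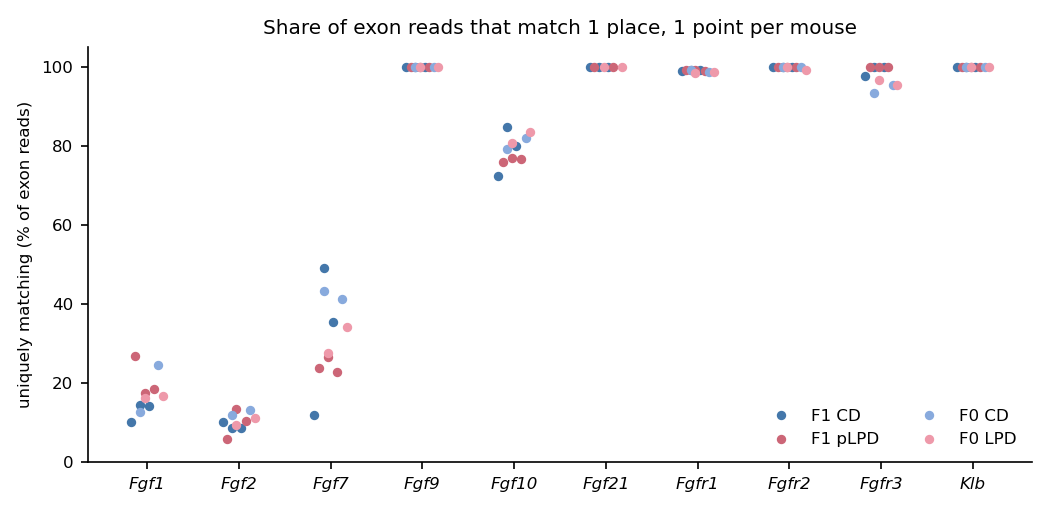
Uniquely matching reads as a percentage of all exon reads of each gene, 1 point per mouse, coloured by group; mice without a read of the gene are left out. Fgf1, Fgf2 and Fgf7 lie between 5.81% and 49.2%, Fgf10 between 72.4% and 84.8%, and the other genes at 93.3% or above.

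In F0 males, LPD feeding went with a higher level of Fgf10 in iWAT. Fgf10 was at 45.0 and 45.2 CPM in the 2 CD mice and at 79.3 and 93.7 CPM in the 2 LPD mice, so both LPD mice lay well above both CD mice. The change was 1.92-fold (log2 fold change 0.94 ± 0.10 SE, 95% interval 0.71 to 1.17, adjusted p = 0.00578, edgeR quasi-likelihood test). Of the 8 members that passed the filter on low counts, Fgf10 alone passed the threshold of 0.05, and 2.50% of all 14581 genes tested did. In unique reads the Fgf10 values were 40.9 and 42.7 CPM against 73.9 and 89.9 CPM, with a log2 fold change of 0.97 (adjusted p = 0.00505). With each of the 4 mice left out in turn the log2 fold change stayed between 0.81 and 1.05 (adjusted p at most 0.0177). Skeletal muscle genes moved the other way in these mice, with 6 of 9 down-regulated. Summed levels of several other lists of cell type markers did not overlap between the diets either. Hepatocyte genes were at 125 and 185 CPM in CD mice and at 68.5 and 68.1 CPM in LPD mice, with 1 of 2 tested down-regulated. Macrophage genes were at 575 and 596 CPM against 505 and 488 CPM, with 1 of 5 down-regulated. Sums of pericyte and smooth muscle genes (682 to 722 CPM against 610 to 615) and of Schwann cell genes (151 to 177 against 129 in both) were lower in LPD mice, with 1 gene down-regulated in each list. The sum of epithelial genes was low in all 4 mice, at 4.92 and 6.19 CPM in CD mice and at 4.73 and 3.63 CPM in LPD mice. No call was made in the 1 epithelial gene tested. The sum of lymphocyte genes was higher in LPD mice, at 290 to 328 against 357 to 391 CPM, with 1 of 7 up-regulated. The part of these cells in the F0 values was not tested.

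The other ligands did not pass the threshold in F0. Fgf1 was at 29.0 and 20.3 CPM in CD mice and at 36.0 and 48.0 CPM in LPD mice, so the groups did not overlap. Its log2 fold change was 0.77 ± 0.18 (adjusted p = 0.0693), and 0.67 in unique reads (adjusted p = 0.243). Leaving out CD replicate 1 or LPD replicate 1 brought it past the threshold (adjusted p = 0.0312 and 0.0378). Fgf2 was at 81.7 and 112 CPM in CD mice and at 70.3 and 59.5 CPM in LPD mice, again without overlap, with a log2 fold change of -0.57 ± 0.15 (adjusted p = 0.0903). Without CD replicate 1 it was -0.78 (adjusted p = 0.0211). In unique reads Fgf2 was at 11.3 and 17.1 CPM in CD mice and at 7.75 and 7.66 CPM in LPD mice, with a log2 fold change of -0.89 (adjusted p = 0.0784). Fgf7, which encodes keratinocyte growth factor, was at 8.28 and 7.49 CPM in CD mice and at 5.67 and 4.80 CPM in LPD mice (log2 fold change -0.58 ± 0.21, adjusted p = 0.223). In unique reads Fgf7 was at 4.12 and 3.56 CPM in CD mice and at 1.82 and 1.88 CPM in LPD mice, with a log2 fold change of -1.05 (adjusted p = 0.137). Non-overlap is common with 2 mice against 2: the diet groups were apart for 6 of the 8 members tested and for 46.5% of all genes tested.

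Klb was at 50.5 and 55.1 CPM in F0 CD mice and at 61.8 and 85.5 CPM in F0 LPD mice. Both LPD mice were higher, with a log2 fold change of 0.48 ± 0.14 that did not pass the threshold (adjusted p = 0.133). Without LPD replicate 1 it was 0.69 (adjusted p = 0.0183). None of the 3 receptors passed the threshold in F0. Fgfr1, the main FGF receptor of fat, was at 222 and 240 CPM against 216 and 261 CPM, with a log2 fold change of 0.05 and a 95% interval of -0.21 to 0.30. Fgfr2, whose splice forms bind FGF7 and FGF10 or FGF2 and FGF9, had a log2 fold change of -0.11 (95% interval -0.50 to 0.29). Fgfr3 was at 3.36 and 4.30 CPM in CD mice and at 3.15 and 2.57 CPM in LPD mice, without overlap. Its log2 fold change was -0.42 (adjusted p = 0.578), and on 22 to 43 reads per mouse the 95% interval was wide, from -1.10 to 0.27.

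**Figure D3:**
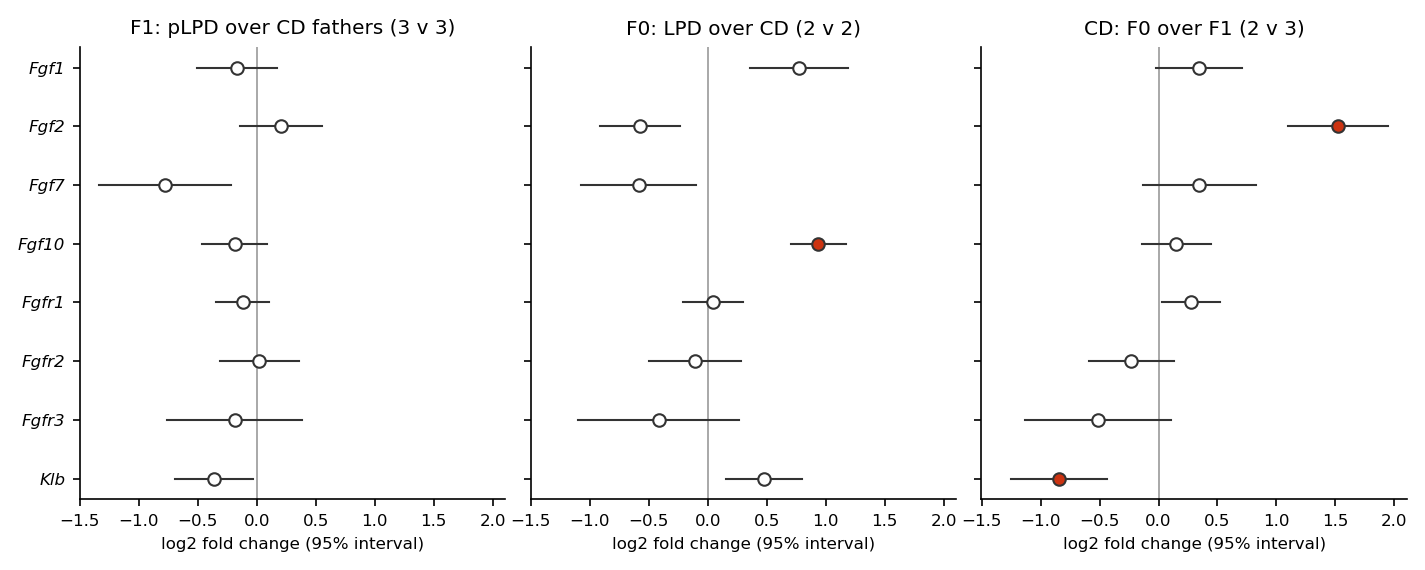
Log2 fold change and 95% interval of the 8 members tested, in F1 (pLPD offspring over offspring of CD fathers), in F0 (LPD over CD) and between F0 and F1 mice of the CD groups; filled points passed an adjusted p of 0.05. Only Fgf10 in F0, and Fgf2 and Klb between F0 and F1, are filled.

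In F1, none of the 8 members tested passed the threshold, where 1.17% of all 14049 genes tested did. The count was also 0 with DESeq2, with the likelihood ratio test of edgeR and with limma-trend on RPKM, and 2 members, Fgf7 and Klb, had an unadjusted p under 0.05. Fgf7 was at 5.67, 6.83 and 6.05 CPM in the offspring of CD fathers and at 3.22, 4.07 and 3.43 CPM in pLPD offspring. All 3 pLPD values were below all 3 control values, which held for this 1 of the 8 members and for 20.1% of all genes tested. The log2 fold change of Fgf7 was -0.78 ± 0.26 (95% interval -1.34 to -0.22, adjusted p = 0.175). It rests on 21 to 30 exon reads per pLPD offspring, of which 5, 8 and 5 matched uniquely, and too few unique reads were left for a test. The offspring of CD fathers had 5, 29 and 16 unique reads of Fgf7. In unique reads CD replicate 1 (0.782 CPM) lay below all 3 pLPD values (0.886, 1.25 and 0.899 CPM), so the groups overlapped.

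Klb was at 112, 103 and 69.1 CPM in the offspring of CD fathers and at 80.1, 68.9 and 70.4 CPM in pLPD offspring. The groups overlapped through CD replicate 3, which lay among the pLPD values. The log2 fold change was -0.36 ± 0.15 (95% interval -0.70 to -0.03, adjusted p = 0.284). Without CD replicate 3 it was -0.55 (adjusted p = 0.0133), the 1 call of a member in F1 under any alternative tried. With the exon share added as a covariate it was -0.61 (adjusted p = 0.630). Without pLPD replicate 1, whose exon share was lowest, Fgf7 was at -0.70 (adjusted p = 0.330) and Klb at -0.43 (adjusted p = 0.328).

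No other member passed at an unadjusted p of 0.05 in F1. Fgf10 was at 34.3, 47.1 and 40.2 CPM against 35.7, 33.1 and 37.6 CPM (log2 fold change -0.19, 95% interval -0.46 to 0.09). Fgf2 was at 25.1, 34.7 and 41.3 CPM against 36.9, 41.5 and 37.2 CPM (0.20, -0.14 to 0.55), with a log2 fold change of 0.36 in unique reads (adjusted p = 0.681). Fgfr1 was at 173, 181 and 217 CPM against 182, 161 and 179 CPM (-0.12, -0.34 to 0.10). The intervals of these 3 genes in all exon reads reached at most a 1.47-fold rise and a fall to 0.725 of the control level. Fgf1 was at 19.8, 18.4 and 19.9 CPM against 14.2, 16.1 and 21.0 CPM, and its log2 fold change of -0.17 turned to 0.49 in unique reads, neither past the threshold. Fgfr2 (0.02) and Fgfr3 (-0.19) did not pass it either. Lower exon shares and fewer macrophage and epithelial transcripts went with the pLPD group: 5 macrophage genes summed to 524 to 615 CPM in offspring from CD fathers and to 349 to 418 CPM in pLPD offspring, with 3 of 5 down-regulated. The 7 epithelial genes summed to 15.7 to 21.4 CPM and to 2.45 to 5.29 CPM, with 3 of 5 tested down-regulated. Krt5 was at 0 reads in all pLPD offspring, but also in CD replicate 1, and had at most 7 reads in any library. The 9 genes of adipose progenitors and fibroblasts summed to 6757 to 11789 CPM and to 4707 to 5634 CPM, with 1 of 9 down-regulated. Most of that sum was Col1a1, at 8818, 10353 and 5286 CPM against 3743, 4527 and 4204 CPM. Dcn, the next most abundant, overlapped between the groups, at 413, 525 and 574 CPM against 425, 453 and 506 CPM. The 4 mesothelial genes summed to 3.49 to 4.86 CPM and to 1.84 to 3.12 CPM, with no call in the 1 tested. The part of these cells in the F1 values was not tested.

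The study asked whether offspring fat changes as the fathers' fat does, and the difference between the diet effects was tested directly as an interaction over all 10 libraries. Fgf10 differed, with a diet effect in F1 lower by 1.14 ± 0.18 on the log2 scale than that in F0 (95% interval -1.52 to -0.75, adjusted p = 0.0112). It was the 1 member of 8 past the threshold, beside 1.25% of all 15111 genes tested. Without F0 CD replicate 2 or F0 LPD replicate 2 the adjusted p was 0.0805 and 0.0626, at log2 differences of -1.14 and -1.01. Klb pointed the same way, at -0.85 ± 0.25 (adjusted p = 0.139), and passed without F1 CD replicate 3 (-1.02, adjusted p = 0.0138). Fgf1 was at -0.95 ± 0.26 (adjusted p = 0.110) and Fgf2 at 0.77 ± 0.25 (adjusted p = 0.175). In unique reads the difference of Fgf1 was -0.19 (adjusted p = 0.903) and that of Fgf2 1.24 (adjusted p = 0.218). Fgf7 was at -0.20 (adjusted p = 0.862), and at -0.19 in unique reads (adjusted p = 0.947). Fgf2 came just under the threshold, at 0.94 in all exon reads, without F1 CD replicate 3.

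Between the CD groups, Fgf2 was higher and Klb lower in F0 than in F1. These mice differ in generation and in age, and the sample codes in their labels begin differently, so these cannot be told apart. Fgf2 was 2.87-fold higher in F0 (log2 fold change 1.52 ± 0.19, adjusted p = 0.00107), and its lowest F0 CD value, 81.7 CPM, lay above its highest F1 CD value, 41.3 CPM. In unique reads the values were 11.3 and 17.1 CPM in F0 and 2.97, 3.47 and 4.18 CPM in F1, a log2 fold change of 2.01 (adjusted p = 0.000720). Fgf2 passed the threshold without any 1 of the 5 mice. Its reads, in exons and introns, cannot be told apart from those of Fgf2os and Nudt6. Klb was 1.79-fold lower in F0 (log2 fold change -0.84 ± 0.18, adjusted p = 0.0128). Without F0 CD replicate 1 or 2 the adjusted p of Klb was 0.0972 and 0.0949, at log2 fold changes of -0.77 and -0.91. These were 2 of 8 members tested, while 17.9% of all 14766 genes tested passed, and the groups were apart for 7 of 8 members and for 50.4% of all genes tested. Marker lists of several cell types were apart too. All 9 skeletal muscle genes were higher in the F0 CD mice. The genes of adipose progenitors and fibroblasts summed to 2646 and 2475 CPM in F0 CD mice and to 6757 to 11789 CPM in F1 CD mice, with 4 of 9 lower and 1 higher in F0. That sum was ruled by Col1a1, at 1034 and 661 CPM in F0 CD mice and 8818, 10353 and 5286 CPM in F1 CD mice. Dcn, the next most abundant, went the other way, at 813 and 971 CPM against 413, 525 and 574 CPM. Epithelial genes summed to 4.92 and 6.19 CPM against 15.7 to 21.4 CPM, with 3 of 5 tested lower. Endothelial genes were lower in sum (581 and 521 against 612 to 813 CPM, 2 of 7 lower), adipocyte genes higher (22944 and 24799 against 18013 to 20740 CPM, 4 of 9 higher) and hepatocyte genes higher (125 and 185 against 41.9 to 48.0 CPM, 1 of 2 tested higher). The part of these cells in the differences was not tested. Fgfr1 had a log2 fold change of 0.28 ± 0.11 (adjusted p = 0.111), and passed without F1 CD replicate 3 (0.38, adjusted p = 0.00810). Fgf1 was at 0.34 (0.79 in unique reads) and Fgf7 at 0.35 (0.66 in unique reads), none past the threshold.

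Reads on introns, which can come from unspliced RNA, were counted since the libraries were made from total RNA. They separated the groups more widely for Klb than exon reads did. Klb lies at chr5:65348314-65384007 on the plus strand of mm10 with no other listed gene over it. All its exon reads matched uniquely, and whether its intron reads did was not examined. Its intron reads were at 43.7, 33.8 and 28.2 CPM of intron reads in offspring from CD fathers and at 22.0, 18.4 and 18.8 CPM in pLPD offspring. They were at 7.29 and 7.15 CPM in F0 CD mice and at 16.1 and 20.7 CPM in F0 LPD mice. Thus the 3 pLPD offspring lay below the 3 controls, and both F0 LPD mice lay above both F0 CD mice. In F0 the intron reads of Klb were 2.55-fold higher with LPD (log2 fold change 1.35 ± 0.20, adjusted p = 0.00643). In F1 the log2 fold change was -0.83 ± 0.17 (adjusted p = 0.0658), the interaction was -2.18 ± 0.29 (adjusted p = 0.00216), and F0 CD mice were 4.86-fold below F1 CD mice (log2 fold change -2.28 ± 0.22, adjusted p = 0.000130). The alternative on intron reads was chosen after seeing the data, and the counts behind it were small, at 44 to 209 intron reads of Klb per mouse.

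For Fgf10 the intron reads pointed as the exon reads did in F0, at 78.7 and 96.1 CPM in CD mice and 106 and 148 CPM in LPD mice, without passing the threshold (log2 fold change 0.54 ± 0.15, adjusted p = 0.108). The interaction of Fgf10 in intron reads was -0.87 ± 0.21 (adjusted p = 0.0594). Fgf1 passed in F0 in intron reads (1.30 ± 0.20, adjusted p = 0.00848), but Fgf1 overlaps Arhgap26 on the other strand, and reads of the 2 genes cannot be told apart. The gene model of Fgfr2 spans 69 other genes, whose reads cannot be told apart from its intron reads, and Fgfr2 did not pass in intron reads in any comparison. In all, 2 of 9 members tested passed in F0 in intron reads (Klb and Fgf1), 0 of 8 in F1, 1 of 9 in the interaction (Klb) and 3 of 9 between the CD groups (Fgf2, Klb and Fgfr1). The shares of all genes tested were 3.48%, 0.424%, 1.28% and 10.7%. Fgfr1 introns were at 189 and 201 CPM in F0 CD mice and at 123, 134 and 103 CPM in F1 CD mice, a log2 fold change of 0.70 ± 0.11 (adjusted p = 0.00269).

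**Figure D4:**
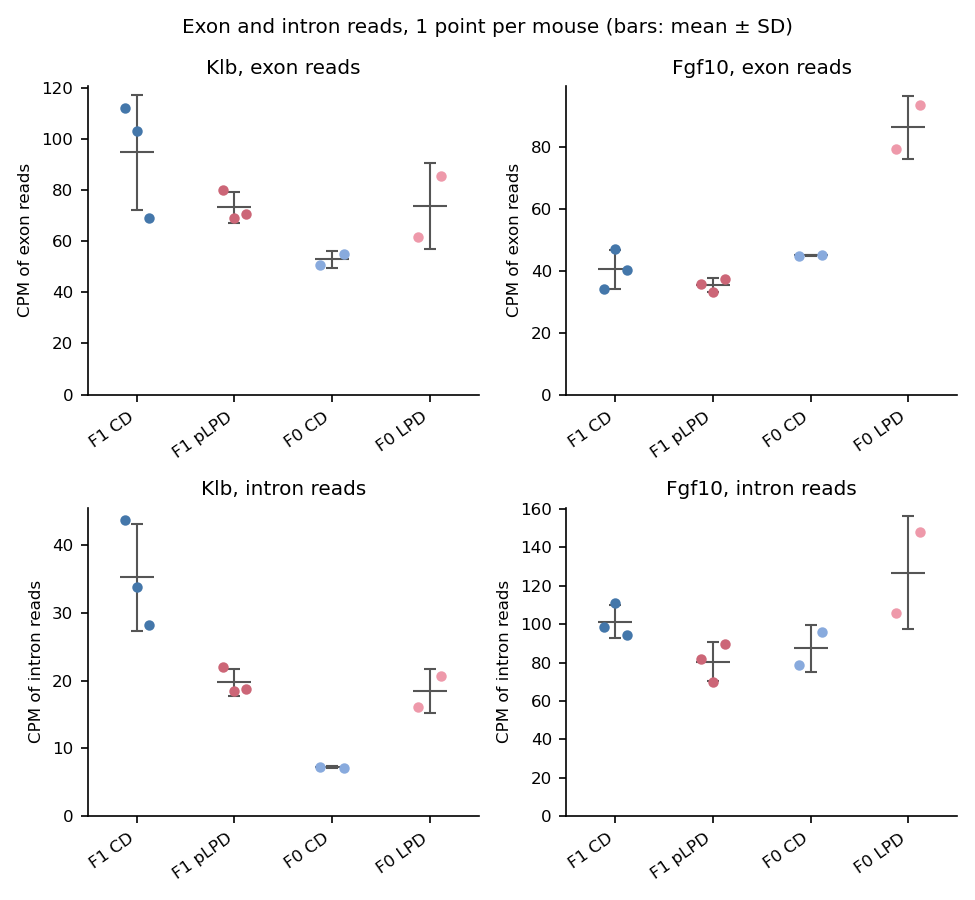
CPM of exon reads and of intron reads of Klb and Fgf10 in each mouse, by group, with the mean and SD of each group; each panel has its own axis from 0. Klb introns were at 7.15 and 7.29 CPM in F0 CD mice and at 28.2 CPM or above in the offspring of CD fathers.

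Fgf21 itself was barely detected. It lies at chr7:45613886-45615490 on the minus strand of mm10, and all its exon reads matched uniquely. The F0 CD mice had 0 and 0 exon reads, which allows up to 0.336 and 0.300 CPM, and the F0 LPD mice had 3 and 4 reads. The offspring of CD fathers had 4, 6 and 2 reads, and the pLPD offspring 12, 0 and 5. The F0 diet groups lay apart by a few reads at or near the floor of 3, and the reads of the offspring of CD fathers lay within the range of the pLPD offspring, so a difference by diet was not detectable at this depth and no fold change is given. These floors cover counting error only. Fgf9, a ligand of FGFR3 and of the c splice forms, was at 1 to 8 reads in every mouse (0.156 to 1.22 CPM) and gave no test either.

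Transcription of Fgf21 in liver is known to be raised by the amino acid response through ATF4. Fgf10 and Klb each passed the threshold in a comparison above, and their exon reads match mostly uniquely. The sequences before the start sites of these genes are shown. Each is 300 bases from 250 before to 50 after the start, as given by RefSeq on GRCm38.p6, in the direction of the gene. Matches are reported for 8 of the 10 members, with 2 start sites for Fgfr3. None are reported for Fgf1 or Fgfr1, so their motifs are not known here. The motifs searched on both strands were the amino acid response element core TGATGNAAT, the cAMP response element TGACGTCA and the E-box CACGTG, and capitals mark matches.
Fgf21 (chr7:45615441-45615740, minus strand): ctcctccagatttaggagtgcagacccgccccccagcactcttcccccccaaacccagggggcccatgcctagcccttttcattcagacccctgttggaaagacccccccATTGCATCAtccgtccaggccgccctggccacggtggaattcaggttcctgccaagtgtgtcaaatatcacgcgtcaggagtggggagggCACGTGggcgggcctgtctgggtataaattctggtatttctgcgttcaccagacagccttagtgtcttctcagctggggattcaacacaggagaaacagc
Fgf10 (chr13:118714449-118714748, plus strand): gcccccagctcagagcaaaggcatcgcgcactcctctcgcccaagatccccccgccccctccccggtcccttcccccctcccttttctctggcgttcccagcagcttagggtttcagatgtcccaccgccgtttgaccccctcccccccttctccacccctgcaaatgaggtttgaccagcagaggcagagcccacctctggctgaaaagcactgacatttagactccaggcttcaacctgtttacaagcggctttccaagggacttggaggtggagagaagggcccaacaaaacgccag
Klb (chr5:65348161-65348460, plus strand): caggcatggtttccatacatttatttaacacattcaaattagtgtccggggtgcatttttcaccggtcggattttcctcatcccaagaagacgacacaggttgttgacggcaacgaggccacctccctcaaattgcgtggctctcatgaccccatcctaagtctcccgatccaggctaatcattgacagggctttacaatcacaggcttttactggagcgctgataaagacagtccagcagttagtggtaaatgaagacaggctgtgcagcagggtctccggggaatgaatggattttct

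The Fgf21 window held the response element core, read on the strand opposite to the gene, with its first base 140 before the start, and an E-box 50 before it. The core occurred in 0.965% of the 32851 promoter windows searched, the E-box in 7.15% and the cAMP response element in 1.79%. Fgfr2 held an E-box 28 after its start, and the windows of Fgf2, Fgf7, Fgf9, Fgf10, Fgfr3 and Klb held none of the 3 motifs. These are matches of letters and say nothing on binding.

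Genes around the FGF path were read from 9 lists. Of the 12 other FGF ligands, 10 had under 10 reads in every library, and Fgf18 (1.43 ± 0.67 CPM, SD over 10 mice) and Fgf22 (0.486 ± 0.290 CPM) were the most abundant. Of the intracellular FGF homologous factors, Fgf13 (12.2 ± 4.1 CPM) and Fgf11 (10.4 ± 1.9 CPM) led, and none of 3 tested passed in any comparison. Fgfrl1, a receptor without the kinase domain, was at 25.8 ± 5.4 RPKM, above Fgfr1, and did not pass in any comparison. Lctl, a relative of the klotho proteins, was at 7.93 ± 2.08 RPKM.

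In F0, genes that FGF21 is known to raise in fat were the list with most calls. The lists were chosen with earlier results of these data known, so this rank is no test. Whether FGF21 acted on these genes was not tested. Of the 10 genes of that list, 4 were up-regulated by LPD and 0 down-regulated, with a median log2 fold change of 0.86 against 0.00 for all genes tested. Ucp1, the uncoupling protein of thermogenic fat, rose from 36.0 ± 31.9 to 264 ± 37 CPM (log2 fold change 2.89, adjusted p = 0.0196). Elovl3, a fatty acid elongase of brown fat, rose by 2.69 on the log2 scale, Cidea, a lipid droplet protein, by 1.62 and Cox7a1, a cytochrome c oxidase subunit, by 1.48. The median was 0.34 for the 11 ERK target transcription factors tested, with 2 up-regulated: Fos (1.36) and Jun (0.89). Of the 20 regulators of Fgf21 transcription tested, 1 was up-regulated and 1 down-regulated, with a median of -0.02. The 1 that rose was Ppara, the nuclear receptor of fatty acid oxidation, by 1.12. Lctl rose by 0.69, and the heparan sulphate proteoglycans Gpc3 and Sdc2 fell by 0.93 and 0.43. None of 26 signal transducers or of 12 feedback inhibitors tested passed, with medians of 0.01 and 0.07. The share over all genes tested was 2.50%, as given above.

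These F0 calls rest on few mice, and some depend on the processing. In the alternatives other than leaving out a mouse, Jun lost its call in 0 of 10. Cidea lost it in 5 of 11, Elovl3 in 3 of 10 and Cox7a1 in 2 of 11, with adjusted p up to 0.168, 0.169 and 0.914. Of 11 in F0, 4 held without any 1 mouse: Jun, Cidea, Elovl3 and Cox7a1. The others were lost without at least 1 library, with adjusted p up to 0.206. Ucp1 was lost without LPD replicate 2 (adjusted p = 0.0554), Ppara without CD replicate 1 or LPD replicate 1 (up to 0.0704) and Fos without CD replicate 2 or LPD replicate 2 (up to 0.124). Lctl and Gpc3 were lost without CD replicate 2 and without either LPD mouse (up to 0.199 and 0.119), and Sdc2 without any 1 of the 4.

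**Figure D5:**
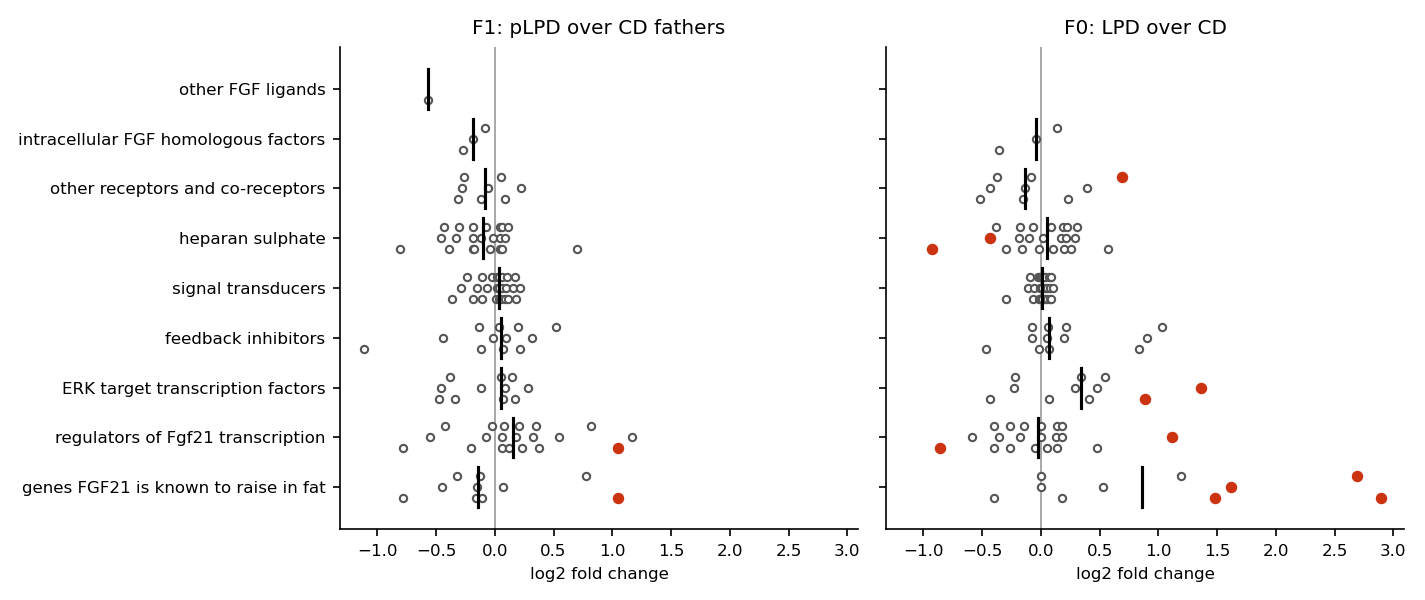
Log2 fold change of each tested gene of the 9 lists in F1 (left) and F0 (right); filled points passed an adjusted p of 0.05 and black bars are list medians. The median of genes that FGF21 is known to raise in fat lay at 0.86 in F0 and at -0.14 in F1.

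In F1, 1 gene of the 9 lists passed. Ppargc1a, a coactivator of mitochondrial and thermogenic genes that stands in 2 of the lists, was at 18.9, 16.2 and 16.5 CPM in the offspring of CD fathers and at 46.7, 27.0 and 32.9 CPM in pLPD offspring, without overlap. It rose by 1.05 on the log2 scale (adjusted p = 0.0260). It was lost without CD replicate 1, CD replicate 2 or pLPD replicate 1, with an adjusted p of up to 0.125. The call was also lost in 3 of the 12 alternatives other than leaving out a mouse, with an adjusted p of up to 0.773. The list of genes that FGF21 is known to raise in fat otherwise had no call, with a median of -0.14. Medians of the signal transducers, feedback inhibitors and ERK targets were 0.03, 0.06 and 0.05, against 0.01 over all genes tested.

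Between the CD groups, where 17.9% of all genes tested passed, 5 of the 10 genes that FGF21 is known to raise in fat were lower in F0 than in F1 and 1 was higher. Ucp1 was at 891 ± 180 CPM in F1 and at 36.0 ± 31.9 CPM in F0 (log2 fold change -4.64, adjusted p = 0.000604), and Elovl3 (-3.61), Cox7a1 (-2.58) and Cidea (-1.94) were lower too. Cox7a1 lost its call in 1 of the 9 alternatives other than leaving out a mouse (adjusted p = 0.896). Of 21 regulators of Fgf21 transcription, 6 were higher and 4 lower, led by Nr1d1 (1.42) and Rora (0.73), which belong to the circadian clock, and by Creb3l3 (-2.23, at 0.492 CPM in F0) and Atf5 (-1.03). Of 26 signal transducers 1 was higher, Braf (0.32), and 3 were lower, Hras (-0.53), Rps6ka1 (-0.43) and Map2k2 (-0.42). Of 23 heparan sulphate genes Sulf2 (0.51) and Sdc2 (0.45) were higher and Agrn (-0.90) was lower. Flrt2 (0.51), Etv1 (0.86), Jun (-0.62) and Dusp4 (-0.59) also passed. Of the 27 genes of the lists that passed in this comparison, 8 passed without any 1 mouse: Ucp1, Ucp3, Elovl3, Cox7a1, Cidea, Nr1d1, Rora and Agrn. Each of the others was lost without at least 1 of the 5 mice, with an adjusted p of up to 0.341.

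The following were the most abundant genes of their lists by mean CPM. Hspg2, which encodes the proteoglycan perlecan, was at 45.1 ± 8.2 RPKM over the 10 mice, Pik3r1, a PI3 kinase subunit, at 30.4 ± 7.9 RPKM, Ptpn11, the phosphatase SHP2, at 15.7 ± 1.4 RPKM, and Sulf2, a heparan sulphatase, at 18.8 ± 6.5 RPKM. Pparg was at 38.3 ± 7.7 RPKM and Ncor1 at 15.2 ± 3.5 RPKM, and Adipoq, the adiponectin gene, at 582 ± 192 RPKM. Jun (9.18 ± 2.88), Junb (7.17 ± 1.30), Dusp4 (12.1 ± 3.1) and Ptprg (4.14 ± 0.80 RPKM) were the leading ERK targets and feedback inhibitors.

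Across the 10 libraries, which share group, depth and age structure, the level of Fgf10 was most like that of Thbs1 (Pearson r of log2 CPM 0.98), Palld (0.96) and BC003331 (0.96), among 12815 genes with at least 10 reads in every library. That of Klb was most like Myo10 (0.95), Acbd4 (0.95) and Adam10 (0.94), that of Fgfr1 like Smndc1 (0.96), Bcr (0.96) and Meis1 (0.96), and that of Fgf1 like Map1a (0.97), Lbp (0.96) and Cyp4v3 (0.95). Fgf2 was most like Taf9b, Cul4b and Lin52 (each 0.98) and Fgf7 like Plekhb1 (0.95), Gpm6b (0.94) and Agfg2 (0.94). Fgfr2 was most like Hist1h4j (0.92), Vangl2 (0.92) and Dazap1 (0.91), and Fgfr3 like Slc9a3r2 (0.96), Fahd1 (0.95) and Trim2 (0.95). Among the members, r was 0.91 between Fgf1 and Fgf10 and -0.81 between Fgf2 and Klb. These are descriptions over mice that fall into 4 groups.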

How the data were processed

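RNA-seq of iWAT was analysed from 10 male mice, with groups and replicate numbers taken from the sample labels. Nothing says that same-numbered mice belong together, and p-values measure the spread between these mice. The authors mapped short paired reads to mm10 in CLC Genomics Workbench and deposited count columns per gene (total and uniquely matching exon reads, intron reads and whole-gene reads), without normalization. They also deposited RPKM values, which divide exon reads by exon length and a library total. This total exceeds the exon reads of each library. TPM values were also deposited and were not used. The annotation release and strand setting are not given in the sources used here.

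The 2 diets were compared in F1 and in F0, each in a fit of its own, and the interaction in a fit of all 10 libraries. CD groups were compared between F0 and F1. Total exon reads were filtered with filterByExpr, normalized by TMM and tested with edgeR 4.0.16 (R 4.3.3, quasi-likelihood F test, two-sided), with Benjamini-Hochberg adjustment over all genes tested. The SE was taken from the log2 fold change and the root of its F statistic. CPM are of the TMM-normalized library, as mean and SD over mice. The smallest p of an exact two-sided permutation test of 1 gene is 0.1 in F1 and 0.333 in F0, so none could pass. The fits were also run on simulated counts with the same dispersion for every gene and changes only in genes with many reads. That run cannot show how the fits do for members with few reads. Alternatives were DESeq2 1.42.0, the likelihood ratio test, DESeq2 size factors, other filters, other read columns, limma-trend (limma 3.58.1) on log2(RPKM + 0.1), all groups in one fit, a replicate block, the exon share as a covariate and each mouse left out. With 1 mouse left out in F0, the lone mouse is assumed to vary like the others.

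The members, the 9 lists of pathway genes, the 11 lists of cell type markers and the rule for named genes were chosen with earlier results of these data known. Named were all members, per pathway list up to 4 genes past the threshold by size of change and the 2 of highest mean CPM, and per member the 3 genes most like it, except 1 gene that is not reported here. Of the listed symbols, 2 were not matched in the files, Spry3 and Itgam. Marker lists whose summed CPM did not overlap between 2 groups compared are given beside that comparison. Over the 10 mice, the 7 endothelial genes summed to 521 to 813 CPM, 6 pericyte and smooth muscle genes to 567 to 722, 7 lymphocyte genes to 290 to 465, 5 Schwann cell genes to 108 to 193, 4 mesothelial genes to 1.84 to 4.86 and 4 hepatocyte genes to 41.9 to 185, the last mostly Alb.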

Additional observations from a re-analysis of the deposited data

Results flagged for a closer look

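Groups held 2 or 3 mice, so no group was examined for a single outlying mouse. The results given here differed between F0 and F1 in the test of the interaction of generation and diet, over all 10 libraries, and no explanation was weighed. Values are the log2 fold change of LPD over CD in F1 minus that in F0.

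Fgf10 differed by -1.14 ± 0.18 (SE, adjusted p = 0.0112). Its diet effect was -0.19 in F1 and 0.94 in F0. Of the pathway genes, Jun differed by -1.36 (adjusted p = 0.00960), with -0.46 in F1 and 0.89 in F0. Cox7a1 differed by -1.94 (adjusted p = 0.0221), with -0.45 and 1.48. Spred3, an inhibitor of RAS signalling, differed by -2.03 (adjusted p = 0.0303) on 12 to 54 reads per mouse. Sdc3, a syndecan, differed by -0.76 (adjusted p = 0.0499). Ppargc1a differed by 1.44 (adjusted p = 0.0410), with 1.05 in F1 and -0.40 in F0. The clock genes Rora and Nr1d1 differed by 0.72 (adjusted p = 0.0190) and 0.93 (adjusted p = 0.0460). Without single mice each of the 7 pathway genes lost its call at least once: Jun without F0 CD replicate 2, Rora without that mouse or either F0 LPD mouse, Cox7a1 without F0 CD replicate 2, F0 LPD replicate 1, F1 CD replicate 1 or pLPD replicate 2, and the other 4 without 6 to 8 of the 10 mice, with adjusted p up to 0.251.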

How the results depend on the processing

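Fgf10 passed the threshold in F0 in 10 of the 11 alternatives other than leaving out a mouse, the exception being intron reads, and Fgf2 passed between the CD groups in all 9 of them. The number of members past the threshold was 1 in F0 and rose to 4 with the likelihood ratio test, with no filter on low counts and with the replicate block, and to 2 with DESeq2 and with intron reads. In the interaction it was 1 and rose to 3 with the likelihood ratio test and to 4 with no filter. Without single mice it ran from 0 to 1 in F1, from 1 to 3 in F0, from 0 to 3 in the interaction and from 1 to 3 between the CD groups. By uniquely matching reads 5 of the 10 members kept their place in the order of levels. The cause of these shifts was not tested. Depth limits Fgf21 and Fgf9, at 12 reads or fewer per mouse, and the F0 comparison rests on 2 mice against 2.

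Over all genes, 164 passed in F1 with 582 by the likelihood ratio test, 375 by DESeq2, 798 with no filter, 339 with all 4 groups in one fit, 260 with the replicate block, 15 with the exon share as a covariate and 57 in intron reads. In F0, 364 passed, with 983 by the likelihood ratio test, 1343 with no filter, 82 by limma-trend, 175 with all groups in one fit and 1391 with the block. In the interaction, 189 passed, with 546 by the likelihood ratio test, 353 by DESeq2, 890 with no filter and 74 by limma-trend. Between the CD groups 2642 passed, and 1540 in intron reads. Without single mice the counts ran from 18 to 510 in F1, from 107 to 475 in F0, from 19 to 395 in the interaction and from 534 to 3355 between the CD groups.

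Limma-trend on the deposited RPKM moved the median over all genes to -0.15 in F1 and 0.12 between the CD groups. The split of higher against lower genes changed from 20 and 144 to 2 and 115 in F1, and from 172 and 192 to 30 and 52 in F0. It changed from 54 and 135 to 9 and 65 in the interaction, and from 1208 and 1434 to 1472 and 776 between the CD groups. RPKM carry no TMM scaling, and their library total exceeds the exon reads, whose share was lowest in pLPD offspring. The part of either in these shifts was not tested. Same-numbered mice did not deviate together (correlations of their deviations -0.00 to 0.04 in F1 and 0.05 in F0), so the block is given here only. With it no member passed in F1, and in F0 the block leaves few degrees of freedom.

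The log2 fold changes that changed sign were all of values short of the threshold, except Ppargc1a in the interaction (-0.62 in intron reads) and Adipoq between the CD groups (-0.26 in intron reads). Fgf1 in F1 was 0.49 in unique reads, 0.19 with the covariate and 0.55 in intron reads. Fgfr2 in F1 was -0.12 on the whole gene and by limma-trend, -0.22 with the covariate and -0.18 in introns, and ran from -0.043 to 0.11 without single mice. In F0, Fgf7 was 0.094 on the whole gene and 0.29 in introns, Fgfr1 was -0.034 on the whole gene, -0.016 by limma-trend, -0.21 in introns and -0.095 to 0.17 without single mice, and Fgfr2 was 0.067 on the whole gene, 0.084 in introns and -0.28 to 0.053 without single mice. In the interaction, Fgfr2 was -0.18 on the whole gene, -0.26 in introns and -0.044 to 0.30 without single mice, and Fgfr3 was -0.28 in introns. Between the CD groups, Fgf10 was -0.058 on the whole gene and -0.21 in introns, and Fgfr3 was 0.20 in introns.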
